A study of Mus musculus with 26 samples.

Results

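Accessible chromatin was compared between C2C12 myotubes given a control siRNA and those given an siRNA against Smc3, using the 4 ATAC-seq peak lists of these groups out of 26 samples in the series, 16 of which had a peak list. All peaks on the 19 autosomes and the X chromosome were joined into 1 region wherever they overlapped by 1 bp, which gave 187972 regions, and a region counted as called by each library with at least 1 peak in it. A region is termed lost when both control libraries and neither siSmc3 library called it, and gained in the opposite case. Of 38630 regions called in both control libraries, 3210 were lost, and of 37951 called in both siSmc3 libraries, 3636 were gained. The remaining core was formed by 25618 regions called in all 4 libraries.

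C2C12 is an established line of mouse myoblasts, muscle precursor cells that stop dividing in low serum and fuse into multinucleate myotubes. Both groups were myotubes differentiated in horse serum with insulin, transferrin and selenium, and the labels name no altered allele or selected clone. The labels set them apart only by the transfected siRNA, Control or siSmc3, and each had n = 2 libraries. Nuclei were exposed to the Tn5 transposase, which inserts sequencing adapters where DNA is open. The level of Smc3 RNA or protein after transfection was not analysed here, and cells in which the siRNA was not taken up cannot be told apart from the rest.

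SMC3 is one of the core subunits of cohesin, a ring that encloses DNA, holds sister chromatids together and extrudes chromatin loops. Much of cohesin on chromosomes stops at sites bound by CTCF, and a smaller part sits at enhancers and promoters with cell-type-specific factors. Myoblast differentiation replaces one set of open enhancers by another, so a region with cohesin in myotubes and none in myoblasts belongs to the part of the cohesin map that is new to the differentiated state.

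The groups overlapped in how much chromatin was called accessible. Control replicate 1 held 58137 peaks and control replicate 2 held 99547, while siSmc3 replicate 1 held 80896 and siSmc3 replicate 2 held 103055. The groups overlapped, and the difference of means had an exact two-sided permutation p of 0.667, where 2 libraries against 2 cannot go below 0.333. Peaks covered 49.1 and 67.3 Mb in control against 47.7 and 75.5 Mb in siSmc3 (exact permutation p = 1), with median widths of 704 and 517 bp against 480 and 570 bp (exact permutation p = 0.667). Library siSmc3 replicate 1 stood apart. Its median peak score was 41.2, against 53.6 and 71.2 in control and 75.7 in siSmc3 replicate 2, where every list started at 30. Of the regions it called, 47.3% were called by no other library, against 27.0%, 29.4% and 32.4% in the others (groups compared, exact permutation p = 0.333). The counts of lost and gained regions are therefore also given without siSmc3 replicate 1. So are the lower, higher and lost shares of the myotube-only, kept and myoblast-only SMC3 classes described below. Other values include this library unless stated otherwise.

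Most regions that both control libraries called were found again after Smc3 knockdown. Of these 38630 regions, both siSmc3 libraries called 25618 (66.3%), siSmc3 replicate 1 alone called 558 (1.44%), siSmc3 replicate 2 alone called 9244 (23.9%), and neither called 3210 (8.31%). The fate of the 37951 siSmc3 regions mirrored this. Both control libraries called 25618 of them (67.5%), control replicate 1 alone called 421 (1.11%), control replicate 2 alone 8276 (21.8%), and neither called 3636 (9.58%). In each direction the long list of the other group, control replicate 2 or siSmc3 replicate 2, held most of the regions missed by the short list. The largest class of regions called by exactly 2 libraries was shared by control replicate 2 and siSmc3 replicate 2, with 19373 regions, more than the lost and gained regions together. The other mixed pairs held 1063, 1721 and 1498 regions.

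**Figure D1:**
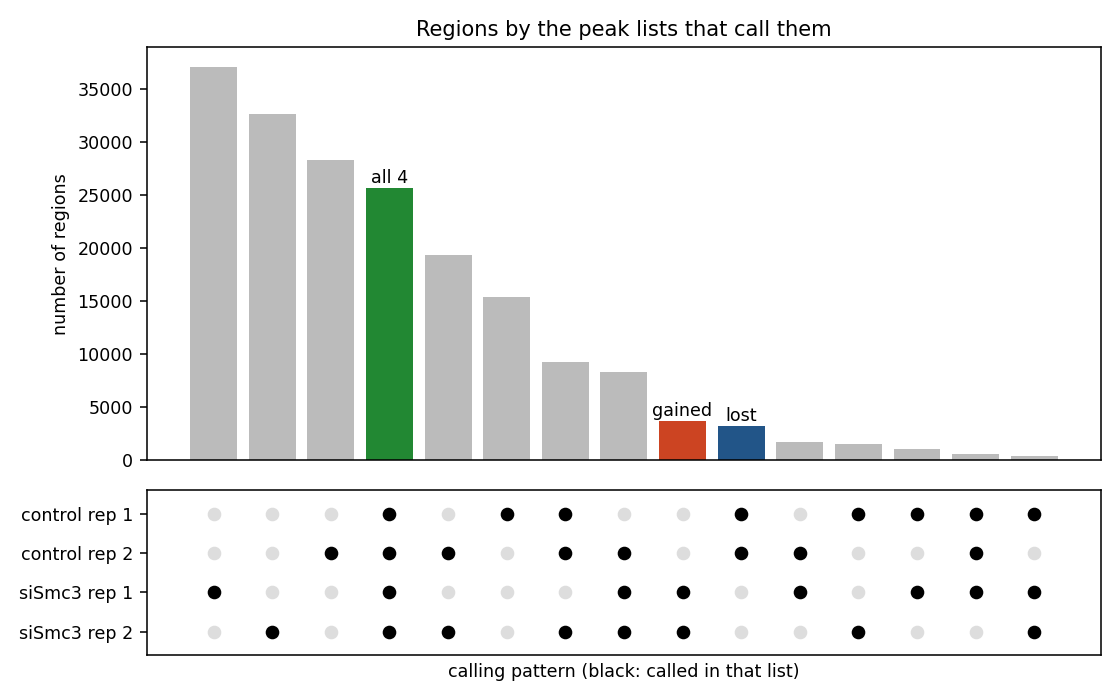
Number of regions (vertical axis) for each combination of the 4 peak lists, with black dots marking the lists that call them. The 25618 regions of all 4 lists are in green, the 3210 lost regions in blue and the 3636 gained regions in red; grey bars are all other combinations, led by regions of 1 list alone.

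Without siSmc3 replicate 1, a region was counted as lost when siSmc3 replicate 2 alone failed to call it, and 3772 regions met that rule. Gained regions then needed a call in siSmc3 replicate 2 only, and their number was 36472, so the count of gained regions rests on both libraries. Which direction was more frequent turned on list length. With all 4 lists shortened to the length of the shortest by keeping the best peaks, 3749 regions were lost and 2272 gained.

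Loss and gain were most frequent among weaker peaks and rare among the best ones. The rank percentile of a peak is its position when the peaks of that list are ordered by deposited score, up to 100 for the best. A region was given the rank of its best peak. Among control regions with a mean percentile below 10, 54.4% were lost. The share fell at every step to 15.5% between 40 and 50, 2.48% between 70 and 80 and 0.0582% above 90, where 4 of 6870 regions were lost. For gain the corresponding shares were 61.5%, 21.1%, 2.7% and 0.0125%, the last being 1 of 8003 regions. Lost regions had a median percentile of 40.1 and gained ones of 39.8, and 44 lost and 37 gained regions lay above 80. A percentile of at least 50 was held by 1056 lost regions (32.9%) and 1102 gained ones (30.3%), against 78.5% of all regions called in both control libraries and 79.4% of those in both siSmc3 libraries.

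**Figure D2:**
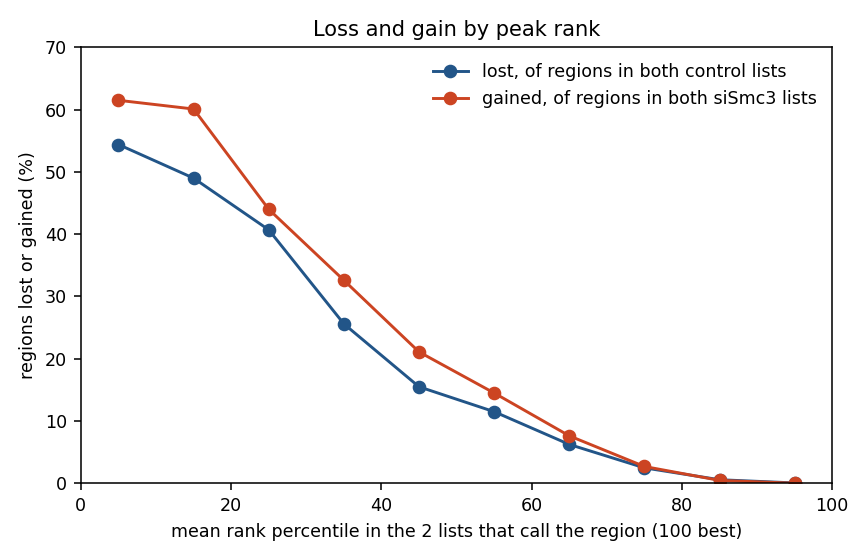
Share of regions lost (blue, of regions in both control lists) or gained (red, of regions in both siSmc3 lists) by mean rank percentile in bins of 10 points, each point at the centre of its bin. Both curves fall from above 50% in the weakest bin to below 0.1% in the best one.

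Among the best peaks, how many were missed depended on the library as well as on its group. Of the 5811 regions holding the best 10% of peaks in control replicate 1, control replicate 2 missed 0, siSmc3 replicate 2 missed 8 (0.138%) and siSmc3 replicate 1 missed 120 (2.07%). Of the 9954 in control replicate 2, siSmc3 replicate 2 missed 10 (0.1%), which was fewer than the 43 (0.432%) missed by control replicate 1, while siSmc3 replicate 1 missed 424 (4.26%). The strongest regions of control replicate 2 were thus recovered at least as completely in 1 siSmc3 library as in the other control. Of the 10303 in siSmc3 replicate 2, control replicate 1 missed 453 (4.4%), siSmc3 replicate 1 missed 231 (2.24%) and control replicate 2 missed 3 (0.0291%). Of the 8061 in siSmc3 replicate 1, control replicate 1 missed 240 (2.98%), control replicate 2 missed 14 (0.174%) and siSmc3 replicate 2 missed 8 (0.0992%). The 2 lists that missed most strong regions were thus control replicate 1 and siSmc3 replicate 1, 1 of each treatment.

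**Figure D3:**
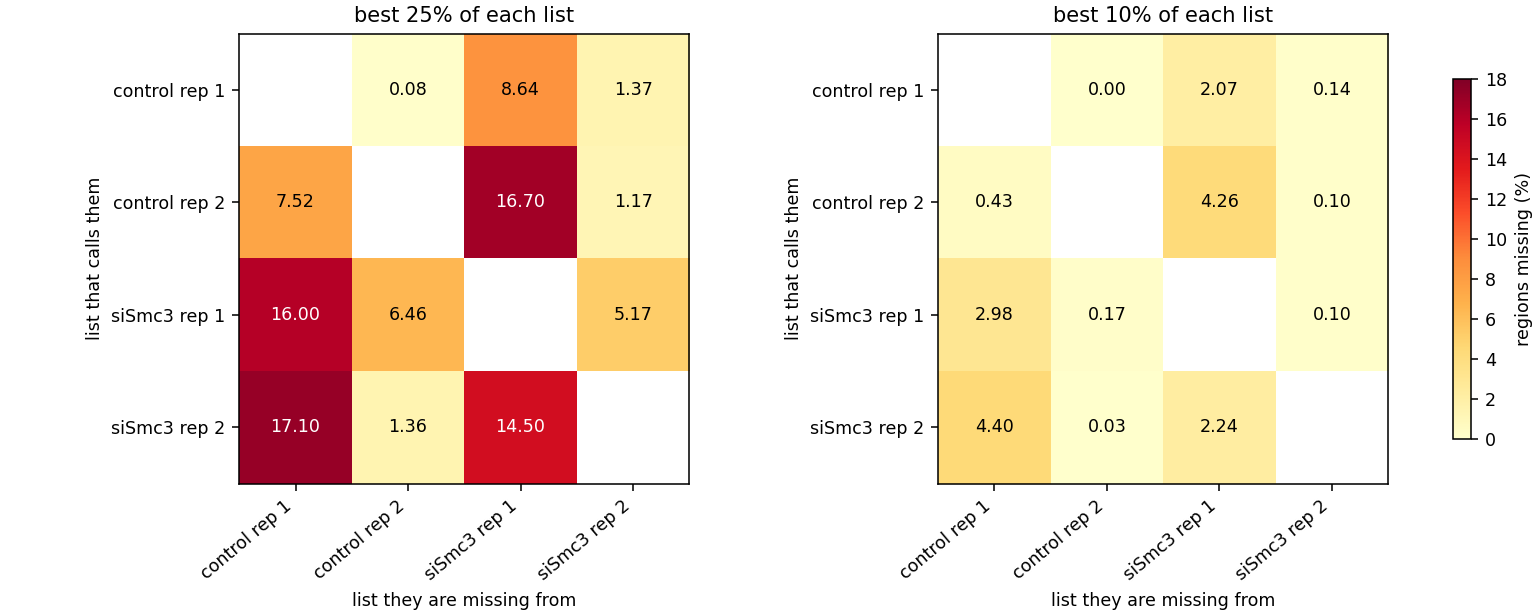
Percentage of the regions holding the best 25% (left) or best 10% (right) of peaks in the list of each row that were called nowhere in the list of each column; colour gives the same value. The columns of control replicate 1 and siSmc3 replicate 1 hold the high values, and control replicate 2 and siSmc3 replicate 2 miss little of each other.

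Lost regions mostly stood away from any remaining peak. Their median width was 708 bp and that of gained regions 641 bp, against 1359.5 bp for regions of all 4 libraries, whose width grows with the number of peaks joined. Single peaks had median widths of 704 and 517 bp in the control lists and 480 and 570 bp in the siSmc3 lists. The nearest siSmc3 peak lay a median of 3140 bp from a lost region. Only 399 lost regions (12.4%) had one within 500 bp, and 541 (16.9%) had none within 10 kb. For gained regions the nearest control peak lay a median of 4169 bp away, 371 (10.2%) had one within 500 bp and 820 (22.6%) none within 10 kb. Most lost or gained regions were thus not shifted edges of a neighbouring peak.

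Coordinates below are in mouse build mm9. The highest-ranked lost region, chr1:20623191-20624186, was at percentile 89.9 in control replicate 1 and 92.8 in control replicate 2. Its nearest peaks in siSmc3 replicates 1 and 2 were 40.1 and 12.1 kb away, so the loss left a wide stretch with no call. The region second in rank, chr13:102765879-102766751, at 89.6 and 92.1, lay 116 and 18 kb from the nearest siSmc3 peaks. The third, chr11:110735600-110736498, at 88.6 and 92.3, was 2.82 and 5.49 kb from the nearest siSmc3 peaks. The fourth, chr3:116695805-116696594, at 90.2 and 90.7, lay 25.5 and 8.03 kb from the nearest siSmc3 peaks. The second and the fourth of these carried SMC3 in myotubes and not in myoblasts, a class described below. The fifth, chr14:73504956-73505929, at 89.1 and 88.9, carried SMC3 at both stages.

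Among gained regions the highest ranked was chr4:117330880-117332007, at 92.4 in siSmc3 replicate 1 and 89.9 in siSmc3 replicate 2, with the nearest control peaks 17.4 and 4.08 kb away. It carried SMC3 in myoblasts and no SMC3 peak in myotubes. The next, chr11:72548100-72549143, at 87.5 and 92.1, had no control peak within 16.0 kb and no SMC3 peak. The third, chr16:76782741-76783559, reached 95 in siSmc3 replicate 1 and 82.8 in replicate 2, with the nearest control peaks 2.97 and 3.07 kb away. These leading regions were thus separate peaks, not edges of peaks called in control.

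**Figure D4:**
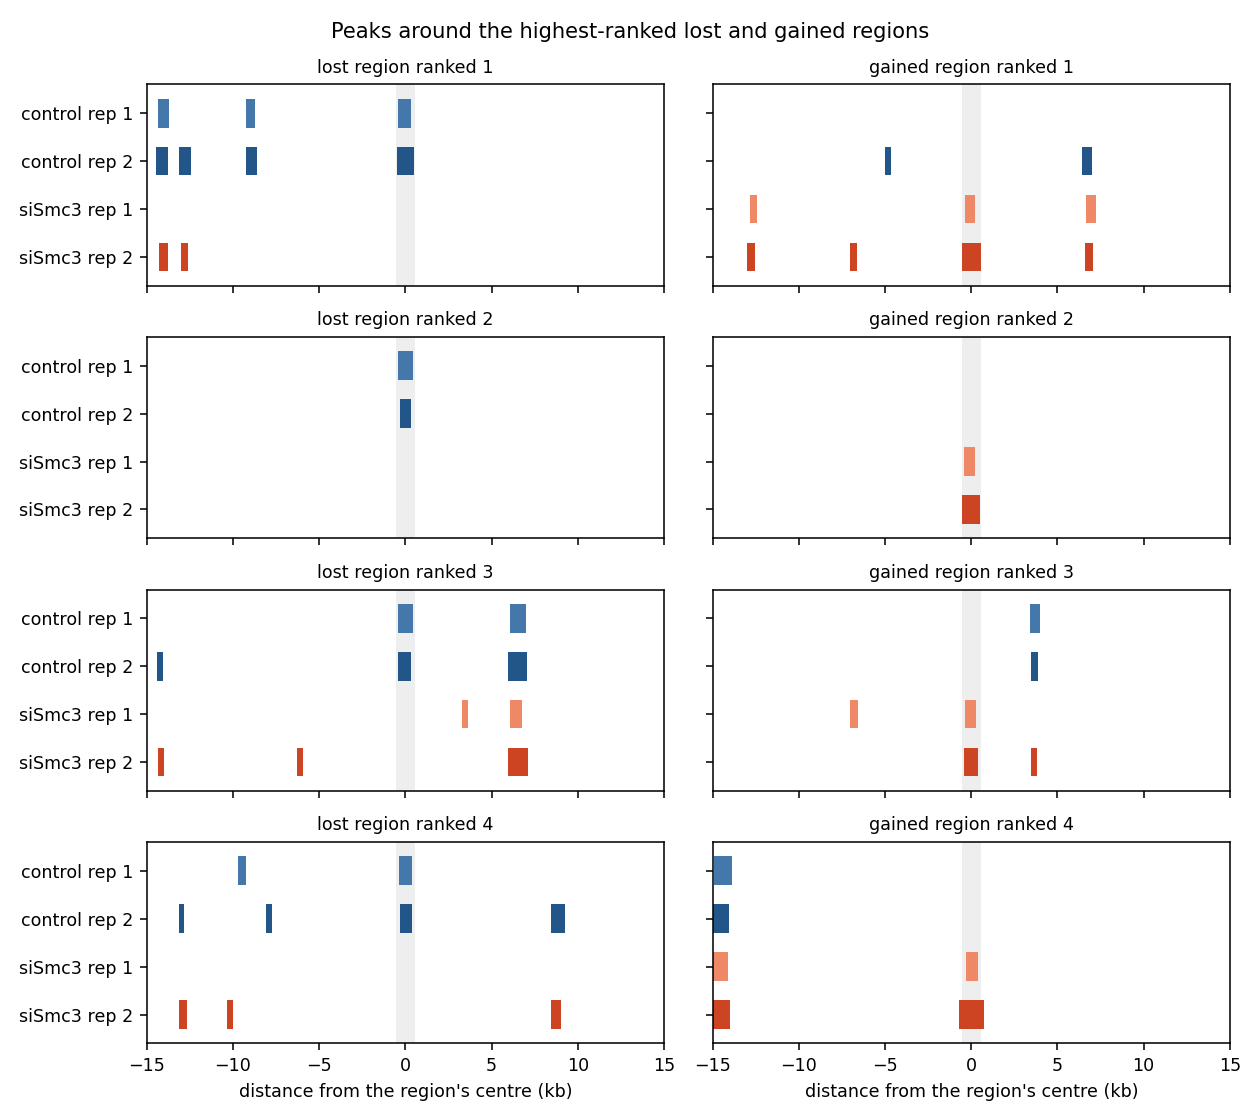
Peaks of the 4 lists (bars, to scale) within 15 kb of the centre of the 4 highest-ranked lost regions (left) and gained regions (right), by distance in kb. The grey band marks the centre, where both lists of 1 group and neither of the other hold a peak.

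The 20 highest-ranked lost regions had mean percentiles of 83.4 to 91.4 and widths of 610 to 1465 bp, and 16 touched no SMC3 peak of either stage. The 20 highest-ranked gained regions had mean percentiles of 84.7 to 91.1 and widths of 608 to 1441 bp, and 19 touched none. No SMC3 peak was usual in both classes, with 85.9% of all lost and 82.6% of all gained regions touching none. The siDRR myotubes of the series, which received an siRNA against the DRR enhancer RNA and were compared with the same control libraries, give a side view. Of the 20 lost regions, both siDRR libraries called 10 and siDRR replicate 2 alone the other 10, so each was called in at least 1 siDRR library. Over all 3210 lost regions the siDRR libraries both called 12.7% and at least 1 called 62.6%. Both called 97.7% of the 11478 regions of both control libraries with ranks like those of the named 20 or better. At least 1 called 11476 of these, so a call in at least 1 siDRR library was usual at that rank. Of the 20 gained regions, both siDRR libraries called 6, 1 of them called 9 and neither called 5. The shares called in both and in at least 1 were 8.09% and 41.5% over all gained regions. They were 97.1% and 99.9% for siSmc3 regions of like rank. Because controls are shared, these counts are not independent of the loss and gain themselves.

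The widest lost region, chr19:5843784-5850722, spanned 6939 bp and ranked at 40.7 and 39.9 in control, with the nearest peak of both siSmc3 libraries 20.0 kb away. Both siDRR libraries called it, at 74.3 and 56.0. Control replicate 1 called it as 1 peak, from 5844032 to 5850722, and control replicate 2 as 2 peaks, from 5843784 to 5847932 at percentile 10.7 and from 5847995 to 5850603 at 39.9, so this was a broad stretch of modest score. The next widest were chr12:25782117-25785315 (3199 bp) and chr8:89487795-89490705 (2911 bp). Peaks of siSmc3 replicates 1 and 2 lay only 0.505 and 0.183 kb from the chr12 region, whose loss thus depended on peak edges. They lay 18.2 and 6.49 kb from the chr8 region. The widest gained region, chr5:10240102-10244569, spanned 4468 bp and ranked at 81.4 in siSmc3 replicate 1 and 24.7 in replicate 2. Control replicate 2 held a peak 0.147 kb from it, so its absence there depended on the edges of the peaks.

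Losses and gains were spread over all chromosomes. The share of control regions lost ran from 6.28% on chromosome 7 (123 of 1959) to 10.7% on chromosome 18 (136 of 1269). The share of siSmc3 regions gained ran from 7.54% on the X chromosome (63 of 835) to 11.2% on chromosome 8 (251 of 2236) and on chromosome 17 (177 of 1583). The 1 Mb window with most losses, on chromosome 2 between 167 and 168 Mb, lost 10 of 68 control regions. The windows with most gains each held 13, on chromosome 5 between 37 and 38 Mb, of 30 siSmc3 regions, and on chromosome 17 between 26 and 27 Mb, of 33. No window lost or gained a majority of its regions among those named here.

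The regions of all 4 libraries were then ranked again among themselves in each library, since ranks from lists of different lengths are not on a common scale. A region is termed lower when both siSmc3 ranks lay below both control ranks, and higher when both lay above. Of the 25618 regions, 5190 (20.3%) were lower and 5174 (20.2%) higher. Ranking the same regions in each library gives every library the same mean rank, so this near balance says nothing about an overall rise or fall. With 2 libraries in each group, either order also arises in a sizeable share of regions when nothing differs between the groups. That share was not subtracted, so 5190 and 5174 are not numbers of regions changed by the knockdown. A gap of at least 10 percentile points between the groups was kept by 2093 lower and 1970 higher regions, and a gap of at least 50 points by 47 and 20. Spearman's rho of the ranks across these regions, which are not independent replicates, was 0.813 between the control libraries and 0.715 between the siSmc3 libraries. It was 0.815 between control replicate 2 and siSmc3 replicate 2, and 0.63 to 0.672 for the other pairs across groups. Control replicate 2 was thus as near to siSmc3 replicate 2 as to its own group mate.

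The region with the widest drop, chrX:48084844-48086044, ranked at 88.3 and 89.5 in control and at 5.73 and 0.789 in siSmc3, a gap of 82.5 points. Its control peaks spanned nearly the whole region, while the siSmc3 peaks were short intervals inside it, and it touched no SMC3 peak. Next was chr17:65862633-65863447, at 86.7 and 91.7 in control and 9.18 and 12.1 in siSmc3, again with no SMC3 peak. The third, chr3:57339459-57340596, at 84.8 and 85.4 in control and 11.7 and 10.3 in siSmc3, carried SMC3 in myotubes only. The remaining named lower regions, chr13:89169254-89170486 and chr9:108176579-108178201, had gaps of 73.0 and 67.4 points.

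The widest rise was at chr16:91352288-91353529, which ranked at 10.0 and 4.58 in control and at 88.3 and 84.7 in siSmc3, a gap of 74.7 points. This region carried SMC3 at both stages. The other 4 named higher regions touched no SMC3 peak: chr3:138133641-138134590, at 1.36 and 6.33 in control against 83.9 and 75.3, chr2:69779318-69780139, chr15:58758968-58759790 and chr8:12805102-12806683, with gaps of 69.0, 67.0, 62.3 and 61.8 points in that order. Each of the 5 was called by both groups, so a call alone would have missed these differences of rank. Some windows of 1 Mb held mainly 1 direction. Between 145 and 146 Mb of chromosome 6, 14 of 23 regions were lower and 2 higher, while between 5 and 6 Mb of chromosome 19 1 of 42 was lower and 17 higher. On chromosome 2 between 30 and 31 Mb 0 of 27 were lower and 13 higher. These windows were chosen for their counts, which are a description.

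SMC3 binding in cells with no knockdown named by the labels was read from the ChIP-seq peak lists of the series, 2 for myoblasts and 2 for myotubes, which the choice of lost, gained, lower and higher regions did not use. Accessible regions were classed by the SMC3 peaks they touched, and the classes were chosen after these data had been seen. Myotube-only regions touched an SMC3 region of both myotube libraries and no myoblast SMC3 peak. Kept regions touched SMC3 regions of both libraries at each stage. Myoblast-only regions touched an SMC3 region of both myoblast libraries and no myotube SMC3 peak. Regions with any other combination of SMC3 peaks were mixed. SMC3 peak lists gave 13885 regions in both myotube libraries, 25241 in both myoblast libraries, and 336 that were called in both myotube libraries and in no myoblast library.

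Accessible regions at myotube-only SMC3 sites ranked lower in both siSmc3 libraries in most cases, and no other class did so. Of 123 such regions called in all 4 ATAC libraries, 70 (56.9%, exact binomial 95% interval 47.7 to 65.8) were lower, 8 (6.5%, interval 2.85 to 12.4) were higher and 45 overlapped, against 20.3% lower and 20.2% higher over all regions. Their median rank was 66.8 and 62.4 in control replicates 1 and 2 and 39.8 and 37.0 in siSmc3 replicates 1 and 2. The libraries of the groups did not overlap, and the mean of the medians was 64.6 ± 3.06 (SD, n = 2) in control and 38.4 ± 1.94 in siSmc3, a difference of -26.2 points (exact permutation p = 0.333, the smallest that 2 against 2 allows). A gap of at least 10 points was kept by 43 lower and 3 higher regions of the 123, against 8.17% and 7.69% of all regions. The intervals cover counting error only, since regions of 1 library are not replicates.

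The drop was found at all levels of accessibility and across the genome. All regions were divided into 5 equal parts by their mean rank over the 4 libraries. From the weakest to the strongest part, the myotube-only regions were lower in 36.4% (8 of 22), 52.0% (13 of 25), 68.0% (17 of 25), 67.9% (19 of 28) and 56.5% (13 of 23). Over all regions the shares were 16.2%, 20.0%, 22.2%, 21.9% and 21.0% in the same order. The share of myotube-only regions that was higher was between 3.57% and 9.09%, against 18.3% to 21.2% of all regions. The 70 lower regions lay on all 20 chromosomes, with at most 7 on any 1, on chromosome 1, where 14 of the 123 lay. The share of myotube-only regions that was lower ran from 2 of 6 on chromosomes 5, 8, 11 and 15 and 3 of 9 on chromosome 12 to all 5 on chromosome 2 and all 4 on the X chromosome.

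The excess of lower regions was present with each library left out in turn. A lone library in a group makes the rule easier to meet, so the share of all regions that was lower rose too and stands beside each value. Without siSmc3 replicate 1, 119 of 169 myotube-only regions (70.4%) were lower and 12.4% higher, against 35.0% and 35.3% of all regions. Without siSmc3 replicate 2, 66.9% were lower and 21.3% higher, against 36.7% and 38.9%. Without control replicate 1 the shares were 60.3% and 13.5%, against 31.5% and 32.6%, and without control replicate 2 they were 68.5% and 12.9%, against 35.3% and 33.7%. The share depended more on how absence from myoblasts was defined. With regions called in 1 of the 2 myoblast libraries allowed, 104 of 291 (35.7%) were lower and 28 (9.62%) higher. These 291 include the stricter class. The regions added to it were lower about as often as all regions, and higher less often.

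**Figure D5:**
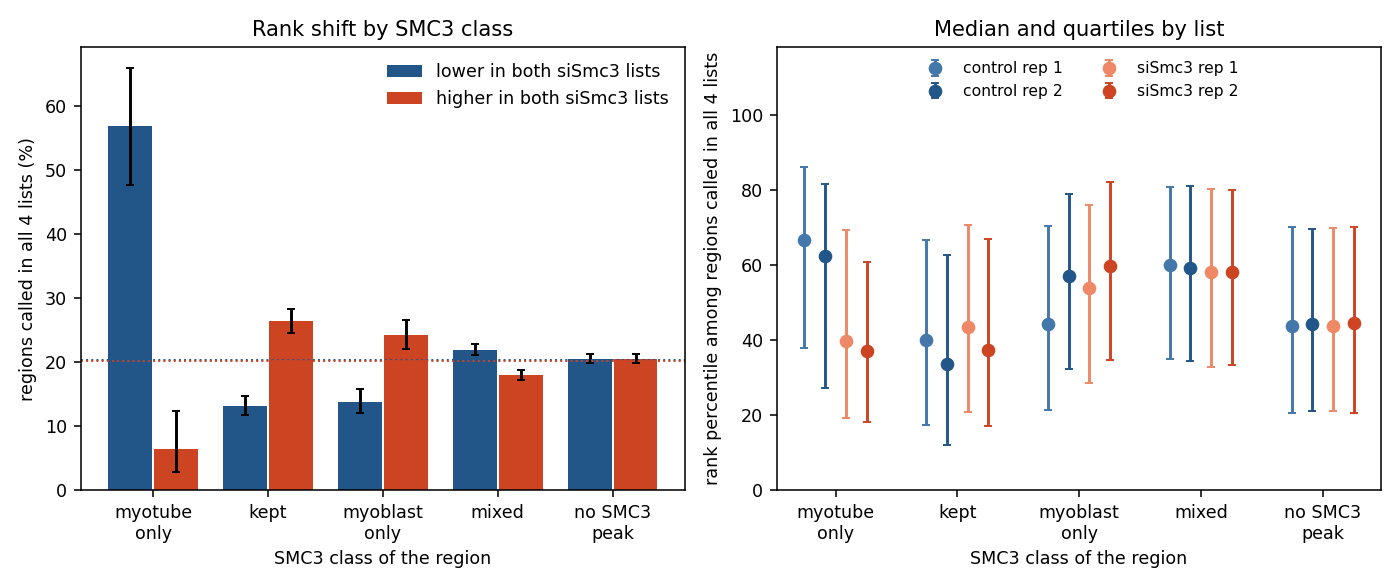
Left, share of regions called in all 4 lists that ranked lower (blue) or higher (red) in both siSmc3 lists, by SMC3 class, with exact binomial 95% intervals; dotted lines give the shares over all regions. Right, median (point) and quartiles (bars) of the rank percentile in each of the 4 lists; the myotube-only class is at 66.8 and 62.4 in control and 39.8 and 37.0 in siSmc3.

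The calls gave a less stable picture than the ranks. Both control libraries called 206 myotube-only regions, of which 123 were called in both siSmc3 libraries, 5 in replicate 1 alone, 47 in replicate 2 alone and 31 (15%, interval 10.5 to 20.7) in neither, against 8.31% of all control regions. The median control percentile was 78.3 over the 206 regions and 55.8 over the 31 lost ones. Of 147 called in both siSmc3 libraries, 6 (4.08%, interval 1.51 to 8.67) were gained, against 9.58% of all siSmc3 regions. Without siSmc3 replicate 1, 36 of 205 (17.6%) were lost, against 9.76% of all regions, and without siSmc3 replicate 2 83 of 210 (39.5%), against 32.5%. With a lone control library the order turned round: 29.2% were lost against 32.9% of all regions without control replicate 1, and 20% against 32.7% without control replicate 2. With SMC3 calls in 1 myoblast library allowed, 39 of 407 (9.58%) were lost, close to the 8.31% of all control regions. Against the kept class, whose values follow, the myotube-only class had the higher share lost in each of these settings: 5.16% and 31.9% of kept regions were lost without siSmc3 replicates 1 and 2, and 16.3% and 9.14% without control replicates 1 and 2.

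Named myotube-only regions showed how large the drop could be. After chr3:57339459-57340596, described above, the widest gap was at chr13:37680208-37681298, which ranked at 66.8 and 63.4 in control and at 7.18 and 10.9 in siSmc3. At chr3:21423018-21424197 the ranks were 84.0 and 63.1 against 10.6 and 1.19, and the siSmc3 peaks, at 21423678 to 21424017 and 21423695 to 21424024, were short intervals inside a control peak of the whole region. At chr8:49840677-49841654 they were 86.0 and 70.1 against 18.1 and 10.7, and at chrX:163240925-163241975 67.9 and 68.3 against 17.3 and 8.51. A wide region, chr11:11753434-11756527 (3094 bp), was among the strongest in control, at 93.3 and 94.0, and stood at 45.9 and 31.5 in siSmc3. There 1 siSmc3 peak per library gave the rank, at 11754857 to 11755525 in replicate 1 and at 11753739 to 11754467 in replicate 2, and these did not overlap. The 8 regions that went up included chr6:101432343-101433664, at 0.685 and 8.41 in control against 29.5 and 46.3, and chr19:44322080-44324002, which was near the top in all 4 libraries, at 94.6 and 97.3 against 98.8 and 97.8.

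Lost myotube-only regions beyond the 2 already named included chr15:58940501-58941274, at 73.8 and 88.2 in the control lists, chr16:92975068-92975851, at 77.7 and 73.8, and chr11:88102082-88102820, at 79.8 and 68.3. In siSmc3 a peak lay 1.05 kb from the first, in replicate 2, and 1.96 and 1.95 kb from the last, so neighbouring open sites remained. The 6 gained ones were weaker. The best, chr15:34897073-34897688, ranked at 55.8 and 64.9 in the siSmc3 lists.

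Regions with kept or myoblast-only SMC3 did not share the drop. Of 2195 kept regions, 289 (13.2%, interval 11.8 to 14.7) were lower and 579 (26.4%, interval 24.5 to 28.3) higher, the reverse order of the myotube-only class. Their medians were 40.1 and 33.6 in control and 43.6 and 37.5 in siSmc3, ranges that overlap (difference 3.71 points, exact permutation p = 0.667). Of 1345 myoblast-only regions, 186 (13.8%) were lower and 326 (24.2%) higher, with medians of 44.4 and 57.0 against 54.0 and 59.7 (difference 6.18 points, exact permutation p = 0.667). Here too the groups overlapped, and the share that was higher exceeded the share that was lower in all 5 parts by mean rank, in both classes. Over all regions the same order held in the weakest part (20.6% higher, 16.2% lower) and the next (21.2% and 20.0%). It did not hold over all regions in the stronger parts (21.1% and 22.2%, 19.8% and 21.9%, 18.3% and 21.0%). Without siSmc3 replicate 1, 26.9% of kept regions were lower and 41.3% higher, and 23.3% and 45.4% of myoblast-only regions, against 35% and 35.3% of all regions. The kept class came nearer to all regions without control replicate 2 (31.9% lower and 37.0% higher, against 35.3% and 33.7%). Its shares were 22.6% and 38.9% without control replicate 1, and 27.1% and 49.3% without siSmc3 replicate 2. The myoblast-only class was near the shares over all regions without control replicate 1 (31.1% lower and 32.7% higher, against 31.5% and 32.6%) and without siSmc3 replicate 2 (33.7% and 38.5%, against 36.7% and 38.9%), so its excess of higher regions rests on those libraries.

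With the 4 full lists, both classes had smaller shares lost and gained than the 8.31% and 9.58% of all regions. Of kept regions 141 of 3242 (4.35%) were lost and 303 of 3449 (8.79%) gained, and of myoblast-only regions 24 of 1711 (1.4%) were lost and 83 of 1828 (4.54%) gained. With lists of equal length, kept loss was 7.67% and gain 8.75%, against 10.7% and 7.53% of all regions, and myoblast-only loss was 2.5% and gain 4.35%. Without siSmc3 replicate 1, 1.93% of myoblast-only regions were lost. Named myoblast-only regions that were higher were led by chr15:24141729-24143132, at 15.8 and 13.5 in control against 77.3 and 82.7 in siSmc3. Next came chr18:73995801-73996660, at 0.431 and 29.0 against 80.9 and 89.3, and then chr6:54906150-54906938, at 18.0 and 21.3 against 77.5 and 70.7. Mixed regions (9687) were lower in 21.9% and higher in 18%. Their medians were 59.9 and 59.2 in control and 58.2 and 58.1 in siSmc3, groups that did not overlap but differed by only -1.42 points (exact permutation p = 0.333). The 12268 regions of all 4 libraries with no SMC3 peak were lower in 20.5% and higher in 20.5%. Of the 21691 regions without SMC3 called in both control libraries, 2756 (12.7%) were lost. Of the 21122 called in both siSmc3 libraries, 3003 (14.2%) were gained. Of the 3210 lost regions 85.9% had no SMC3 peak, of the gained 82.6%, and of the regions of all 4 libraries 47.9%. The last are also wider, which gives them more room to touch a peak. In the sets that lost and gained regions come from, 21691 of 38630 control regions and 21122 of 37951 siSmc3 regions had none. The median percentile of control regions was 66.3 without SMC3, 63.8 in the kept class and 81.3 in the mixed class. Loss was more frequent at low ranks, and the classes were not compared at equal rank for loss or gain.

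Values after DRR knockdown stand beside these for the 22555 regions called in all 6 ATAC libraries, ranked again among themselves. The 105 myotube-only regions had medians of 65.7 and 64.3 in control, 41.6 and 32.4 in siSmc3, and 40.6 and 58.3 in siDRR replicates 1 and 2. One siDRR library was at the siSmc3 level and the other lay between the groups. Kept regions were at 38.9 and 33.0, 44.2 and 36.7, and 41.3 and 38.6 in the same order. The comparisons share their control libraries, so the 2 knockdowns are not independent.

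DRR RNA contacts mapped by ChIRP-seq in myotubes were rare in lost and gained regions. Widened by 250 bp on each side, summits of the 4 ChIRP lists touched 0.312% to 3.83% of lost regions, 0.303% to 3.38% of gained regions and 0.488% to 5.91% of regions of all 4 libraries. In each of the 4 ChIRP lists the lost and gained shares were below that of the regions of all 4 libraries, which are also wider.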

How the data were processed

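The 2 control and 2 siSmc3 ATAC-seq lists, and 2 siDRR ATAC, 4 SMC3 ChIP and 4 ChIRP lists for side values, were read as deposited, 1 list per library and grouped by the labels. The last column is the deposited score that the authors' peak caller gave each peak. Not given in the sources used here: its scale, the calling threshold, the control and any shift of ATAC reads. The submitters' processing notes name build mm9 and, with no role, MACS2, MACS 1.4.2, Bowtie2 2.2.4, Bowtie 1.1.1, cutadapt 1.12, bcl2fastq 2.17.1 and CASAVA 1.8.2. Lists hold no read counts, so depth is unknown, and scores served to order peaks within a list and for nothing else. Each ATAC list lost 1 peak, on the mitochondrial chromosome. SMC3 lists after DRR knockdown were not used, and the 10 input and LacZ samples were not analysed here.

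Starts were made 1-based. Merging, calling and ranking were done in Python 3.11.15 with numpy 2.4.6, pandas 2.3.3 and scipy 1.17.1 (exact permutation and binomial functions), and tested on simulated lists. Values per library were compared by two-sided exact permutation tests. Counts of regions have no test, because regions are not replicates. Named regions were the 20 lost and 20 gained of highest mean rank, the 5 of all 4 libraries with the widest rank gap each way, the 5 widest lost and gained, the 1 Mb windows with most losses or gains and the chromosomes with extreme shares. Myotube-only and myoblast-only regions were named by rank gap or mean rank, a rule chosen after the data had been seen, as were the windows of rank shift. The comparison and its lists were chosen with earlier results of these data known. Gene annotation was not used here. No label says that replicates came from separate cultures, and their spread may be technical. Replicate numbers are shared between groups, with a correlation of same-number deviations of 0.249 over regions of all 4 libraries and no label that ties a number to a batch, so no pairing was assumed.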

Additional observations from a re-analysis of the deposited data

How the results depend on the processing

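Myotube-only SMC3 regions were lower in 55.6% to 56.9% and higher in 6.31% to 6.67% with lists of equal length, the better-scoring 50% of each list or all 6 ATAC libraries merged. Allowing 1 myoblast library gave 35.7% lower. Leaving out 1 library gave 60.3% to 70.4% lower and 12.4% to 21.3% higher, under a rule that is easier to meet. Loss in that class was 23.0% with equal lengths (10.7% of all control regions), 22.0% in the better-scoring 50% (7.6%), 9.58% with 1 myoblast library allowed (8.31%), and 17.6% to 39.5% without 1 library (9.76% to 32.9%). It was below the share over all regions when either control library was left out. All these alternatives were chosen after seeing the data.

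Lost regions numbered 1966 and gained 2013 in the better-scoring 50%, and gained 2272 with equal lengths. The share of lost among both was 46.9%, and 62.3% with equal lengths, 49.4% in the better-scoring 50% and 48.5% where peaks had to cover 50% of a region. Leaving out 1 library gave 3772 to 31827 lost, 4070 to 41103 gained and a lost share of 9.37% to 88.7%, because 1 library then decides a group. Lower and higher regions numbered 2093 and 1970 with a gap of 10 points, and 9182 to 12199 and 8773 to 12305 without 1 library.

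The share touching an SMC3 region of both myotube libraries was 5.61% of lost, 8.69% of gained and 9.7% of regions of all 4 libraries, which are wider. It was 7.28% and 10.7% for lost and gained with equal lengths, 11.3% for gained and 8.89% for all 4 in the better-scoring 50%, and 11.9%, 12% and 35.0% with SMC3 of either library. Without 1 library it ranged from 2.13% to 9.11%, 1.94% to 10.5% and 9.55% to 10.1%.

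The siSmc3 minus control difference was 13133.5 peaks, 3.4 Mb and -85.5 bp of median width. With the replicate block it was the same, with exact sign-flip permutation p of 0.5, 1 and 1, where 2 pairs cannot go below 0.5. Without 1 library it ranged from -7571.5 (without control replicate 1) to 33838.5 peaks. Covered width ranged from -10.5 (without siSmc3 replicate 2), with -5.7 without control replicate 1, to 17.3 Mb. Median width ranged from -179.0 to 8.0 bp (without control replicate 1). The cause of these changes was not tested.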
